A study of Homo sapiens with 10 samples.

Results

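The endoderm lineage transcription factors studied here (8 of the 33551 genes in the count table) were followed by gene symbol across 10 RNA-seq libraries: the nuclear receptors HNF4A and HNF4G, the forkhead factors FOXA1 and FOXA2, the zinc-finger factor GATA6, and the HMG-box factors SOX2, SOX4 and SOX9. They were chosen as factors known to set lung or gut-like identity in mucinous lung adenocarcinoma, with earlier results of these data known. All 8 passed the filter on low counts. The cells were A549, an established human lung adenocarcinoma line. The 5 lines were labelled WT, KO (an ABCA3 knockout, called here the line labelled KO), L101P, E292V and E690K, the last 3 named for a change in the ABCA3 protein. ABCA3 is the transporter that loads surfactant lipids into lamellar bodies. Each line gave 1 untreated library and 1 library labelled as transduced overnight with VSVG LV-ABCA3:GFP, a lentivirus that delivers a GFP-tagged ABCA3, at an MOI (infectious particles per cell) of 20. Each genotype was thus 1 line with 2 libraries, so the differences below are between these 5 lines and cannot be told apart from differences between clones of one genotype.

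In the lung, FOXA1 and FOXA2 are pioneer factors that open chromatin for lung and gut programmes alike, and GATA6 works beside them in early endoderm and distal lung. HNF4A and HNF4G are receptors of liver, stomach and gut epithelium, and HNF4A is known to be switched on in mucinous lung adenocarcinomas that lack NKX2-1, the lung master regulator. SOX2 marks proximal airway and foregut, SOX9 marks distal lung progenitors, and SOX4 is a broadly expressed factor of progenitors and carcinomas.

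The 10 libraries held 59430095 to 96811421 counts. Levels are given as CPM, counts scaled to a common library total after TMM normalization, and levels of different genes are compared per exon length (RPKM). Of the 6 epithelial markers, KRT8 was the most abundant (up to 7946 CPM), and their summed level was 7932 to 15185 CPM. Of the 6 immune markers CD68 reached 44.2 CPM and CD14 5.47 CPM. These were the 2 tested, and both differed among the lines by edgeR at an adjusted p under 0.05. PTPRC, LST1 and TYROBP reached at most 10, 12 and 2 counts, and CD3E had 0. The 5 endothelial markers summed to at most 1.33 CPM. The 5 neuroendocrine markers summed to at most 5.92 CPM, where SYP reached 5.45 CPM and INSM1 and CALCA were at 0. The library labelled KO untreated held 45023 ABCA3 counts (600.3 CPM), against 2092 (26.0 CPM) in the library labelled KO transduced, and the row for EGFP held 2842 and 4 counts in them. In the other 4 lines the EGFP row was higher in the transduced library, in E690K by little (18.5 against 16.5 CPM). Untreated WT also held 5924 EGFP counts (69.7 CPM, against 37.9 CPM in the library labelled KO untreated), so that row alone does not mark transduction. Untreated then transduced, ABCA3 was at 356 and 602 CPM in WT and 1151 and 922 in L101P. It was at 965 and 1021 in E292V and 900 and 994 in E690K. A transduced library thus did not always hold more ABCA3, and the untreated levels differed between lines. The row for TDTOMATO had 0 counts in both libraries labelled KO and 236 to 756 in the others. The values of the pair labelled KO go against its labels, so a direction of the vector effect there rests on the labels alone.

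The highest library was of the E292V line for HNF4A, FOXA2, SOX2 and SOX4, and the promoters of HNF4A and SOX2 are shown. The SOX4 window lies wholly in annotated exons, and FOXA2 has no entry among the promoters used, so neither is printed. The windows are the 250 bases before an annotated start (for SOX2 without 1 base that lies in an annotated exon), from RefSeq on GRCh38.p14, read 5′ to 3′ on the gene's strand. Capitals mark matches, on either strand, to 5 short motifs. AGGTCA is read by nuclear receptors such as HNF4. TGTTTA is a forkhead motif. AGATAA is a GATA motif. ACAAT is a SOX motif. GGGCGG is the GC box. HNF4A has 2 starts in the table, at chr20:44355449-44355698 (upstream) and chr20:44400989-44401238 (second), and the SOX2 window is chr3:181711675-181711923, all on the plus strand.

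HNF4A upstream: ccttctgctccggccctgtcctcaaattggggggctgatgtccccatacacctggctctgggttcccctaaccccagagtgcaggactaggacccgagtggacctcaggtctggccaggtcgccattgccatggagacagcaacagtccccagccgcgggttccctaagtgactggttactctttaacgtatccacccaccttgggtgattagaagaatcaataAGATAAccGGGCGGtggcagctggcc

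HNF4A second: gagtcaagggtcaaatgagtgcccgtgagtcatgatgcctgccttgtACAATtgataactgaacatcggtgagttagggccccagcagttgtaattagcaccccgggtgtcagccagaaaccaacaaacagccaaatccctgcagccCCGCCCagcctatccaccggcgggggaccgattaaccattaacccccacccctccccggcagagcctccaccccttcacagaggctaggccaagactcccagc

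SOX2: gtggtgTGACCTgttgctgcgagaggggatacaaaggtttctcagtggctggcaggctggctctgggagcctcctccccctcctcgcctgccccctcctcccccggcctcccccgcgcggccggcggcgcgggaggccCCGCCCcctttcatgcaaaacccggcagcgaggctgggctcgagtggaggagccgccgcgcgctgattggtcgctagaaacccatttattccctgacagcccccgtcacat

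The upstream HNF4A window held 1 GATA match and 1 GC box. The second held 1 SOX match, which 24.6% of 35116 RefSeq promoter windows of the same length hold, and 1 GC box. The SOX2 window held 1 nuclear-receptor motif, present in 12.1% of windows, and 1 GC box, present in 42.6%. The SOX4 window, not printed, also held 1 nuclear-receptor motif. The forkhead motif is held by 11% of windows and the GATA motif by 9.17%. These matches describe the letters only, and matches of different motifs may overlap. Gene counts cannot assign reads to the 2 HNF4A starts.

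All 8 factors were detected in all 10 libraries. Per exon length, FOXA2 was the most abundant (median 19.7 RPKM), followed by SOX4 (18.9), FOXA1 (13.8), HNF4A (10.4), SOX2 (6.72), SOX9 (4.93), HNF4G (2.29) and GATA6 (1.62). FOXA2 and SOX4 overlapped in range, at 15.4 to 23.4 and 16.2 to 23.1 RPKM. The 2 lowest, HNF4G (1.25 to 2.84) and GATA6 (1.12 to 1.89), overlapped as well. NKX2-1 (NKX2.1 in the table) was listed at 0 to 0.188 CPM. Counts behind the members ran from 291 (GATA6 in untreated L101P) to 12987 (SOX4), and 95% Wilson intervals on read pairs cover counting error only.

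**Figure D1:**
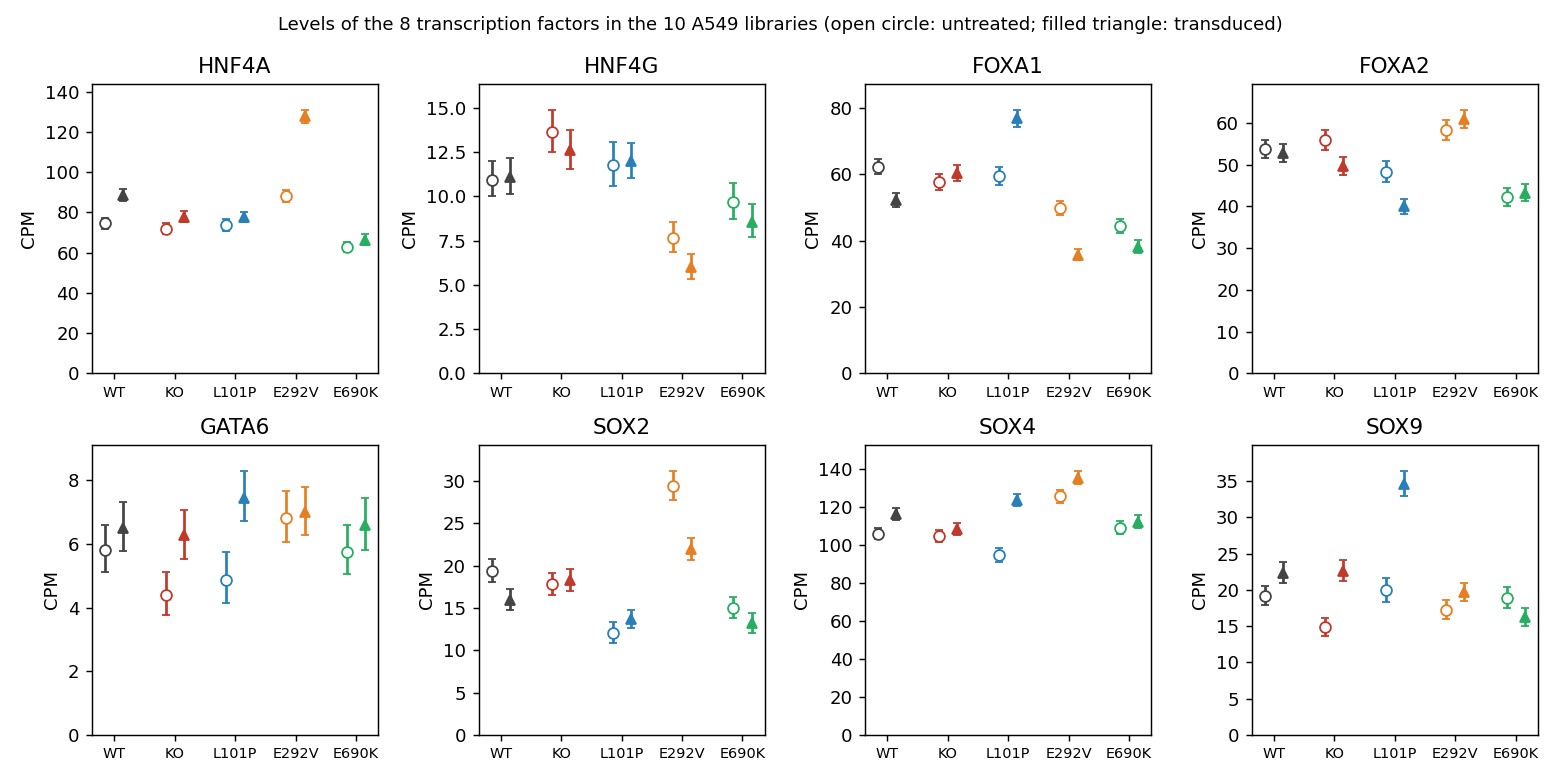
Level of each factor (CPM, y axis from 0) in the untreated (open circle) and transduced (filled triangle) library of each line, as labelled; bars are 95% Wilson intervals of the counting error. Both E292V libraries are above the other 8 for FOXA2, SOX2 and SOX4 and below them for HNF4G.

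Of the 8 factors, 5 differed among the lines in edgeR's quasi-likelihood F-test at an adjusted p under 0.05 (Benjamini-Hochberg over all genes), where 13% of the 17978 genes tested did. They were SOX2 (edgeR adjusted p 0.00277), HNF4G (0.00344), HNF4A (0.00424), FOXA2 (0.0159) and FOXA1 (0.0174). SOX4 (0.145), SOX9 (0.162) and GATA6 (0.585) did not pass the edgeR test. Without the E292V pair only FOXA1 passed, and the edgeR adjusted p was 0.0931 for SOX2, 0.108 for HNF4G, 0.125 for HNF4A and 0.116 for FOXA2. Over the whole table the genes called fell from 2337 to 931 without this pair, so the loss was not limited to these factors. Without the E690K pair, or without either of its libraries, 3 of 8 passed, FOXA1 and FOXA2 being lost. Without the transduced E292V library FOXA2 was lost (edgeR adjusted p 0.0746).

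HNF4A encodes a receptor that drives liver, stomach and gut genes. It lies at chr20:44355700-44434596 (plus strand, GENCODE 29, ENSG00000101076.16). Levels are given untreated first and transduced second. They were 74.5 and 88.7 CPM in WT, 71.8 and 77.8 in the line labelled KO, 73.7 and 77.8 in L101P, 88.2 and 128 in E292V, and 62.7 and 66.4 in E690K. The transduced E292V library stood at the top and both E690K libraries at the bottom, below the other 8 (4.73% of genes had this order). E292V exceeded E690K by 0.73 on the log2 scale (SE 0.10, edgeR adjusted p 8.1e-04).

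Against E292V, the log2 difference of HNF4A was -0.51 in the line labelled KO (edgeR adjusted p 0.00747) and -0.50 in L101P (0.00746). E292V against WT gave 0.39 (SE 0.10, edgeR adjusted p 0.121), and E690K against WT -0.33 (0.0912). Without the transduced E292V library the edgeR adjusted p was 0.173 for labelled KO against E292V and 0.175 for L101P against E292V. Without the transduced library labelled KO the first was 0.137.

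HNF4G, the close paralog, was lowest in E292V. It lies at chr8:75407914-75566843. Levels, untreated then transduced, were 11.0 and 11.1 CPM in WT, 13.7 and 12.6 in the line labelled KO, 11.8 and 11.99 in L101P, 7.65 and 6.02 in E292V, and 9.69 and 8.57 in E690K. Both E292V libraries lay below the 8 others (8.14% of genes), and both libraries labelled KO lay above the 8 others (2.24%). The E292V values rest on 620 and 578 counts.

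HNF4G was the only member called against WT, in E292V (log2 fold change -0.70, SE 0.14, edgeR adjusted p 0.0311; 1 of 8, where 1.05% of genes were called). The call was lost with the KO labels exchanged (edgeR adjusted p 0.0707) and without any 1 of 7 libraries: untreated WT (0.150), transduced WT (0.205), untreated labelled KO (0.0537), transduced labelled KO (0.0536), transduced E292V (0.454), untreated E690K (0.0608) and transduced E690K (0.0600). The labelled KO line exceeded E292V by 0.95 (SE 0.14, edgeR adjusted p 9.3e-04) and L101P exceeded it by 0.81 (0.00200). The ratio of HNF4A to HNF4G per exon length was 7.58 and 13.9 in E292V, and 3.46 to 5.26 in the other 8 libraries.

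FOXA1 and FOXA2 are the forkhead pioneer factors. FOXA1 (chr14:37589984-37596059, minus strand) was at 62.3 and 52.2 CPM in WT, 57.5 and 60.3 in the line labelled KO, 59.4 and 76.8 in L101P, 49.8 and 35.8 in E292V, and 44.3 and 38.1 in E690K. E292V and E690K were low, and the transduced L101P library was highest.

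FOXA1 was higher in L101P than in E292V by 0.69 (SE 0.15, edgeR adjusted p 0.00991). L101P minus E690K was 0.74 and did not pass (edgeR adjusted p 0.0523). Without the transduced L101P library the E292V comparison gave 0.0548, and without the transduced E292V library 0.164. Without the untreated L101P library, FOXA1 against WT in L101P gave an edgeR adjusted p of 0.00356, and without the transduced one its sign reversed (log2 0.26 with both).

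FOXA2 (chr20:22581005-22585455, minus strand) was at 53.6 and 52.7 CPM in WT, 55.9 and 49.6 in the line labelled KO, 48.2 and 40.0 in L101P, 58.3 and 60.8 in E292V, and 42.1 and 43.2 in E690K. Both E292V libraries were above the other 8. E292V exceeded E690K by 0.48 (SE 0.10, edgeR adjusted p 0.00624) and L101P minus E292V was -0.44 (edgeR adjusted p 0.00889). Without the transduced E292V library the edgeR adjusted p was 0.113 and 0.147. The E690K call was also lost without the untreated E690K library (0.116) and the L101P call without the transduced L101P library (0.0704). The ratio of FOXA2 to FOXA1 per length was 1.79 and 2.60 in E292V and 0.798 in the transduced L101P library. The other 7 libraries were at 1.24 to 1.74.

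GATA6, at chr18:22169443-22202528, acts in endoderm and lung development. Its levels were 5.81 and 6.52 CPM in WT, 4.40 and 6.27 in the line labelled KO, 4.88 and 7.46 in L101P, 6.82 and 7.00 in E292V, and 5.77 and 6.59 in E690K. Both E292V libraries lay above those of WT, the line labelled KO and E690K, and within the range of L101P, whose libraries were 4.88 and 7.46. No pair of lines was called in GATA6. The overlapping antisense gene GATA6-AS1 reached 0.791 CPM, up to 11.3% of GATA6 in the same library, and whether strand was used in counting is not given in the sources used here. TTC6, which overlaps FOXA1, reached 4.48% of it. Without strand, reads of such partners cannot be told apart.

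SOX2 (chr3:181711924-181714436) marks proximal airway and foregut. Its levels were 19.4 and 16.0 CPM in WT, 17.8 and 18.3 in the line labelled KO, 12.1 and 13.7 in L101P, 29.4 and 21.9 in E292V, and 15.01 and 13.2 in E690K. Both E292V libraries were above all 8 others, and the L101P and E690K libraries were low. FOXA2, SOX2 and SOX4 were the 3 of 8 with this order in E292V, against 7.49% of genes.

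L101P minus E292V was -0.98 for SOX2 (SE 0.14, edgeR adjusted p 6.9e-04). E292V exceeded E690K by 0.86 (SE 0.14, edgeR adjusted p 0.00183). Both calls held without any 1 library or pair. The labelled KO line was at -0.50 against E292V (edgeR adjusted p 0.0377). That call was lost without the WT pair (0.0510) or the E690K pair (0.0749), without either library labelled KO (0.326 and 0.116 for untreated and transduced), without untreated E292V (0.328) and without either E690K library (0.0640 and 0.0638). E292V against WT was 0.54 (SE 0.14, edgeR adjusted p 0.112).

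SOX4 (chr6:21592768-21598619) had the smallest spread of the 8. It was at 106 and 116 CPM in WT, 104 and 108 in the line labelled KO, 94.6 and 123 in L101P, 125 and 135 in E292V, and 109 and 112 in E690K. Its highest library was 1.43 times its lowest, against 2.44 times for SOX2. The labelled KO line was at -0.29 against E292V (SE 0.09, edgeR adjusted p 0.0498), a call lost without any 1 of the WT, labelled KO, E292V or E690K libraries (up to 0.427).

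SOX9 (chr17:72121020-72126420), a factor of distal lung progenitors, was at 19.2 and 22.3 CPM in WT, 14.9 and 22.6 in the line labelled KO, 19.9 and 34.6 in L101P, 17.3 and 19.7 in E292V, and 18.9 and 16.2 in E690K. The transduced L101P library stood alone at the top. No pair of lines passed the edgeR test. L101P against E690K was 0.59 (edgeR adjusted p 0.221) and L101P against E292V 0.53 (0.0784). In SOX2 to SOX9 per length, E292V was at 2.67 and 1.75 and L101P at 0.948 and 0.617. The other 6 libraries were at 1.12 to 1.87, the highest of them the untreated library labelled KO, above transduced E292V.

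**Figure D2:**
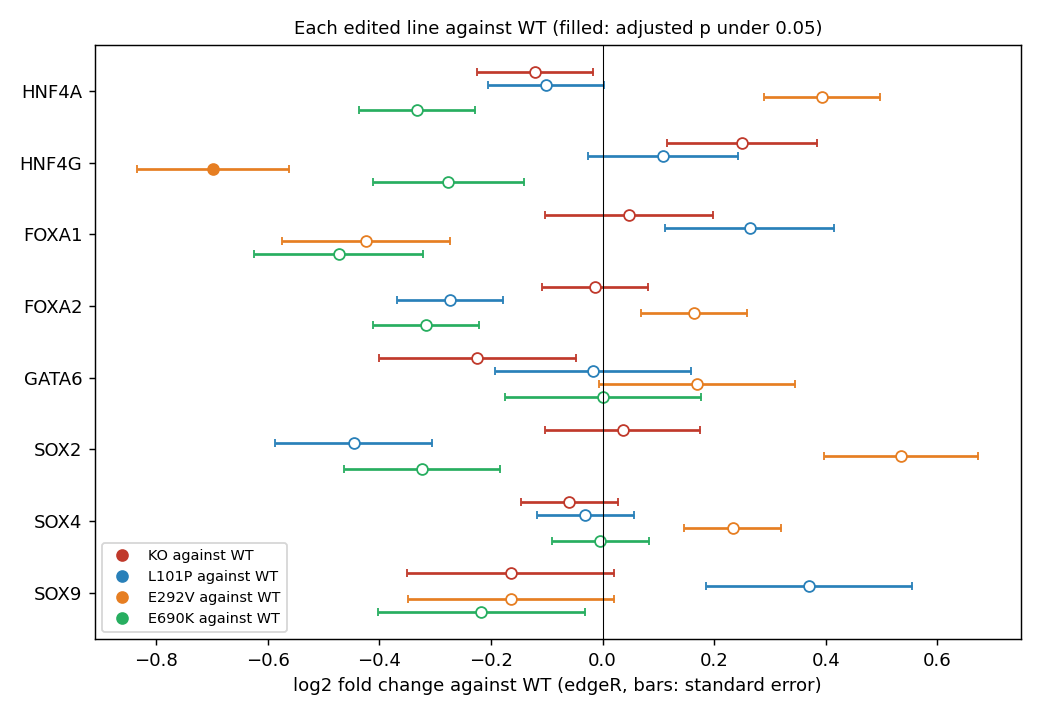
Log2 fold change of each line against WT for the 8 factors from edgeR (x axis; bars are standard errors); a filled point has an adjusted p under 0.05. Only HNF4G in E292V, at -0.70, is filled.

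Against WT, 0 of 8 members were called in the line labelled KO (1.8% of genes were called), 0 in L101P (3.94%), and 0 in E690K (5.38%). The counts at an unadjusted p under 0.05 were 5 of 8 in E292V, 4 in E690K, 2 in L101P and 0 in the line labelled KO. Of all 17978 genes tested, 1857, 3474, 3292 and 2532 had such a p in these lines, in the same order. In E690K the log2 values of those 4 were -0.33 for HNF4A, -0.47 for FOXA1, -0.32 for FOXA2 and -0.32 for SOX2. DESeq2 called 3 of 8 in E292V, 3 in E690K, and 0 in L101P and the line labelled KO. The DESeq2 share over all genes is not given here, so these counts stand without a background.

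Both E690K libraries were below both WT libraries for 6 of 8 factors (27.4% of genes had this order) and above for 0 (24%). E292V was above WT for 4 (19%) and below for 2 (20.3%). L101P was above for 1 (20.7%) and below for 2 (23.3%), and the line labelled KO above for 1 (22%) and below for 0 (23.7%).

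Over the 10 pairs of lines, 13 of the 80 member differences passed the edgeR threshold, and all 13 were in the 4 pairs that hold E292V. Members called were 4 of labelled KO against E292V (10.7% of genes), 5 of L101P against E292V (13.8%) and 3 of E292V against E690K (10.4%). In the 6 pairs without E292V, 0 were called; the background was 0.139% for labelled KO against L101P, 1.64% for labelled KO against E690K and 0.69% for L101P against E690K. Those pairs gave 3, 4 and 4 members at an unadjusted p under 0.05, where 1008, 2317 and 1928 of the 17978 genes had one. The pairs share libraries, so they are not independent.

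**Figure D3:**
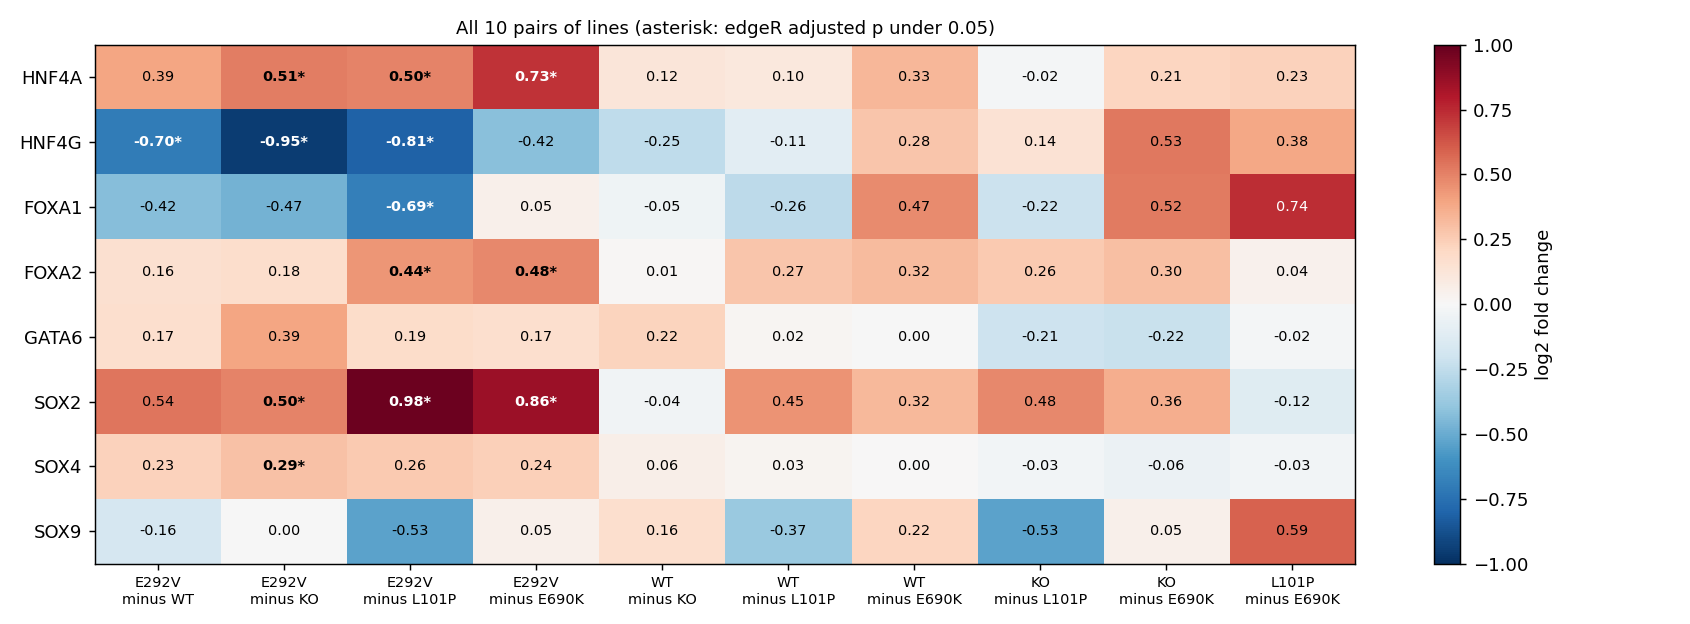
Log2 difference of each factor (y axis) for all 10 pairs of lines (x axis, first line minus the second), from edgeR; an asterisk marks an adjusted p under 0.05. The 13 asterisks are in the 4 columns with E292V, and none in the other 6.

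The summed level of the 6 fibroblast markers was 75.8 and 119.5 CPM in E292V, against 16.6 to 46.9 in the other 8 libraries. COL1A1 reached 116 CPM and made up most of it, and rose in E292V against WT (log2 1.42, SE 0.26, edgeR adjusted p 0.0214). LUM (lumican) followed another order, at 3.37 and 4.05 CPM in E690K, 2.88 and 3.98 in the line labelled KO, and 2.57 and 2.04 in E292V. It rose in E690K (1.02, edgeR adjusted p 0.0371). PDGFRA, COL3A1, COL1A2 and DCN reached at most 57, 34, 22 and 18 counts. The summed epithelial list, nearly all of it the 4 keratins, was lowest in E292V at 8353 and 7932 CPM. The epithelial surface markers EPCAM and CDH1 had log2 values above 0 against WT and did not pass the test. EPCAM was at 15.4 and 13.2 CPM in E292V and 10.6 and 7.62 in WT (log2 0.65, edgeR adjusted p 0.122), and CDH1 at 35.4 and 29.3 against 27.5 and 30.3 (0.16, 0.762). Their part in the factor differences was not tested. In bulk RNA, fewer cells expressing a gene and less RNA per cell cannot be told apart.

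For the vector, each line was its own block. Of the 8 members 0, and of 17978 genes 0 (0%), were called by edgeR. At an unadjusted p under 0.05 there were 4 members and 1236 genes, and DESeq2 and limma-voom called 0 members. HNF4A was higher in the transduced library in 5 of 5 lines as labelled (log2 0.21, SE 0.07, edgeR adjusted p 0.454). GATA6 (0.30, edgeR adjusted p 0.599) and SOX4 (0.14, 0.609) were also higher in 5 of 5, and SOX9 (0.32, 0.597) in 4 of 5. Without the pair labelled KO, HNF4A, GATA6 and SOX4 were higher in 4 of 4 lines and SOX9 in 3 of 4. With the labels of that pair exchanged, HNF4A, GATA6 and SOX4 were higher in 4 of 5 and SOX9 in 3 of 5.

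**Figure D4:**
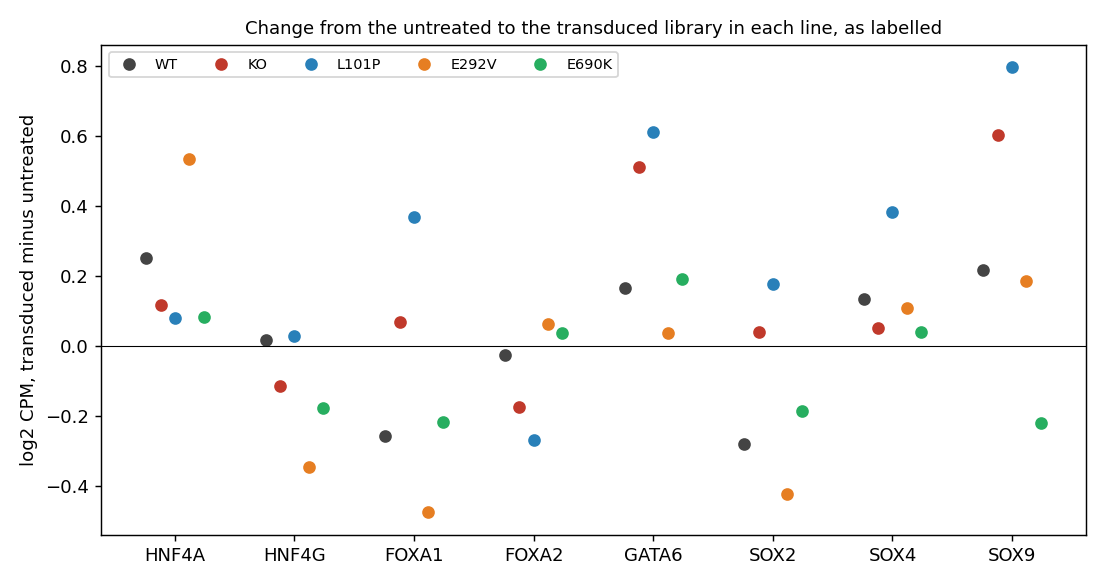
Log2 CPM of the transduced minus the untreated library (y axis) for each factor (x axis) in each line, as labelled. HNF4A, GATA6 and SOX4 lie above 0 in all 5 lines, and FOXA1 spreads from -0.47 in E292V to 0.37 in L101P.

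Within a line there is no replicate, so these values have no test. For HNF4A the log2 difference of transduced minus untreated was 0.53 in E292V and 0.08 to 0.25 in the other 4 lines, where the line labelled KO was at 0.12. With the labels of its pair exchanged, the other 4 lines ran from -0.12 to 0.25. For SOX9 it was 0.80 in L101P and -0.22 in E690K. Over the lines, the vector effect on HNF4A passed without the transduced L101P library (edgeR adjusted p 0.0486).

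Related genes came from 7 lists of paralogs, lineage factors and target genes, chosen by known role with earlier results of these data known. The list counts are thus a description, since the lists are not independent of these data. In the edgeR F-test, 8 of 16 tested family paralogs differed among lines, 7 of 17 gut and liver transcription factors, 9 of 24 lung and airway factors, 7 of 17 HNF4A and liver-type target genes, 6 of 18 gastric and mucinous genes and 1 of 7 lung identity genes. Over all genes 13% differed, and some genes, such as FOXA3, are on more than 1 list. Of the 5 neighbouring and antisense genes tested, 4 noncoding RNAs and the protein-coding MIPOL1, 0 differed. In the line labelled KO, 9 genes of these lists were called against WT, and with the labels of its pair exchanged 8 of the 9 calls were lost, all but TFF1. The exchange also ended list calls against WT in the other lines. In L101P these were 6 of 12 (ANXA10, CEBPB, FGA, MUC5B, SOX13 and TP63), in E690K 3 of 11 (ELF3, LPCAT1 and MUC5AC), and in E292V 1 of 3 (SOX17).

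Among the paralogs, 1 of 16 was called against WT in each of the line labelled KO, L101P and E292V, and 0 in E690K. SOX17, an endodermal SOX factor, was at 1.43 and 1.17 CPM in E292V and at 2.44 to 4.997 in the other 8 libraries. It fell in E292V against WT (log2 -1.28, SE 0.26, edgeR adjusted p 0.0394). FOXA3, the third FOXA factor, was at 12.6 and 8.78 CPM in E292V (log2 -0.76 against WT, edgeR adjusted p 0.0972). SOX13 rose in L101P (0.54, edgeR adjusted p 0.0351), and SOX12, named after its value was seen, fell in the line labelled KO (-0.41, edgeR adjusted p 0.0431). The edgeR calls were lost for SOX17 without either WT library, either E292V library or either E690K library (up to 0.420), SOX13 without either WT library, transduced labelled KO, transduced L101P or either E690K library (up to 0.244) and SOX12 without either WT library, either labelled KO library or either E690K library (up to 0.618). Median log2 changes of the paralogs were -0.07 (labelled KO), 0.15 (L101P), -0.10 (E292V) and -0.17 (E690K), against -0.01, -0.01, 0.00 and -0.02 over all genes.

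Among gut and liver factors, 1 of 17 was called in the line labelled KO, against 1 in L101P, 4 in E690K and 0 in E292V. KLF4, a factor of differentiating epithelium, rose in the line labelled KO (0.48, edgeR adjusted p 0.0431), L101P (0.66, 0.00623) and E690K (0.73, 0.00185). In E690K, PPARG, a nuclear receptor of lipid metabolism, fell (-0.50, edgeR adjusted p 0.0158), as did NR5A2, a liver and gut receptor (-0.42, 0.0345), and HHEX, named after its value was seen (-0.44, 0.0248). In E690K, edgeR calls were lost for KLF4 without untreated E690K (0.0563), for PPARG without untreated WT or either E690K library (up to 0.208), for NR5A2 without either WT library or either E690K library (up to 0.271), for HHEX without either WT library or either E690K library (up to 0.274). In the line labelled KO the call was lost for KLF4 without either WT library, either labelled KO library or either E690K library (up to 0.538), and in L101P for KLF4 without transduced WT (0.0602). The list medians were -0.02, -0.14, 0.03 and -0.34 in the order labelled KO, L101P, E292V and E690K.

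Among lung and airway factors, 2 of 24 were called in the line labelled KO, against 2 in L101P, 1 in E690K and 1 in E292V. SPDEF, a driver of goblet cells, was at 33.4 and 18.7 CPM in E292V and 59.2 and 45.8 in WT, and fell (log2 -1.02, SE 0.20, edgeR adjusted p 0.0275). ELF3, an epithelial ETS factor, fell in E690K (-0.46, edgeR adjusted p 0.0368). ID2, a distal tip marker of the developing lung, rose in the line labelled KO (0.47, edgeR adjusted p 0.0321), and so did TBX3 (0.48, 0.0475). In L101P, TP63, the basal-cell factor, rose (1.69, edgeR adjusted p 0.0227) and CEBPB fell (-0.39, 0.0497). TBX3, TP63 and CEBPB were named after their values were seen. The edgeR calls were lost for SPDEF without untreated WT, transduced E292V or either E690K library (up to 0.269), for ELF3 without untreated WT, either labelled KO library or either E690K library (up to 0.287), for ID2 without either WT library or either labelled KO library (up to 0.282), for TBX3 without either WT library, either labelled KO library or either E690K library (up to 0.456) and for TP63 without either WT library or transduced L101P (up to 0.117), for CEBPB without either WT library, either labelled KO library, transduced L101P or untreated E292V (up to 0.193). The list medians were 0.02, 0.18, -0.06 and -0.02.

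Among the HNF4A and liver-type targets, 3 of 17 were called in the line labelled KO, against 4 in L101P, 3 in E690K and 1 in E292V. FGA, FGB and FGG, which encode the fibrinogen chains made by hepatocytes, fell in 3 lines. FGB was at 213 and 155 CPM in WT, 147 and 109 in the line labelled KO, 97.1 and 91.6 in L101P, 243 and 186 in E292V, and 67.9 and 56.7 in E690K. E690K libraries were lowest and E292V and WT libraries highest. E690K against WT gave FGB -1.55 (edgeR adjusted p 4.9e-06), FGG -1.72 (1.2e-05) and FGA -1.22 (1.2e-05), and these calls held without any 1 library.

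FGB was at -0.94 in L101P (edgeR adjusted p 4.9e-04) and -0.52 in the line labelled KO (0.0137). In E292V, whose transduced library was highest for HNF4A, FGB was at 0.22 (edgeR adjusted p 0.394). That transduced library was lower for FGB than the untreated one (186 against 243 CPM). As labelled, the log2 vector effect was -0.32 for FGB, -0.37 for FGG and -0.33 for FGA (edgeR adjusted p 0.109, 0.150 and 0.109). None of these 3 was called, and their relation to HNF4A was not tested. CDH17, a gut cadherin, was at 14.4 and 10.01 CPM in E292V, 32.7 and 36.6 in WT, and 57.5 to 133 in the other 6 libraries. It fell in E292V (log2 -1.49, edgeR adjusted p 0.0150) and rose in L101P (1.50, 0.00624). The edgeR calls were lost for FGA without either WT library, either labelled KO library or either E690K library (up to 0.636), for FGB without untreated WT or either labelled KO library (up to 0.310), for FGG without untreated WT, either labelled KO library or either E690K library (up to 0.483) in the line labelled KO, and for CDH17 without untreated WT or transduced E292V (up to 0.0974) in E292V. ALB (albumin) reached at most 20 counts, and APOB, APOA2 and G6PC had 0 in every library. The list medians were 0.14, 0.16, -0.37 and -0.57.

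Among gastric and mucinous genes, 2 of 18 were called in the line labelled KO, against 4 in L101P, 2 in E690K and 0 in E292V, all higher than in WT. MUC5AC, the gel-forming mucin of stomach and airway, was at 13.9 and 21.5 CPM in WT and 17.1 and 10.3 in E292V, and at 64.7 to 459.7 in the other 6 libraries. MUC5AC rose by 2.68 in the line labelled KO (edgeR adjusted p 0.0321), 3.71 in L101P (0.00537) and 2.59 in E690K (0.0182). TFF1, a gastric trefoil peptide, rose by 3.23 (edgeR adjusted p 0.0162), 4.42 (0.00260) and 3.87 (0.00263). Untreated then transduced, TFF1 was at 2.78 and 2.55 CPM in WT, 17.6 and 35.8 in the line labelled KO, and 20.7 and 109 in L101P. It was at 38.3 and 39.1 in E690K. MUC5AC was at 64.7 and 180 in the line labelled KO, 77.1 and 460 in L101P, and 104 and 93.8 in E690K. In L101P and the line labelled KO the 2 libraries thus lay far apart. MUC5B (1.77, edgeR adjusted p 0.0241) and ANXA10, named after its value was seen (1.81, 0.0401), rose in L101P.

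The edgeR calls were lost in the line labelled KO for TFF1 without transduced WT or transduced labelled KO (up to 0.150), for MUC5AC without either WT library, transduced labelled KO or untreated E690K (up to 0.327), in L101P for MUC5B without either WT library (up to 0.106), for ANXA10 without either WT library, transduced L101P or either E690K library (up to 0.286) and in E690K for TFF1 without untreated E690K (0.0525), for MUC5AC without either WT library or untreated E690K (up to 0.244). The medians of the gastric and mucinous list were 0.77, 2.05, -0.38 and 0.66. Of the 7 lung identity genes tested, LPCAT1, a surfactant lipid enzyme, rose in E690K (0.36, edgeR adjusted p 0.0110), and the call was lost for LPCAT1 without untreated WT or either E690K library (up to 0.163). The surfactant genes SFTPA1 and SFTPB reached at most 11 and 12 counts, and SLC34A2 6.

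**Figure D5:**
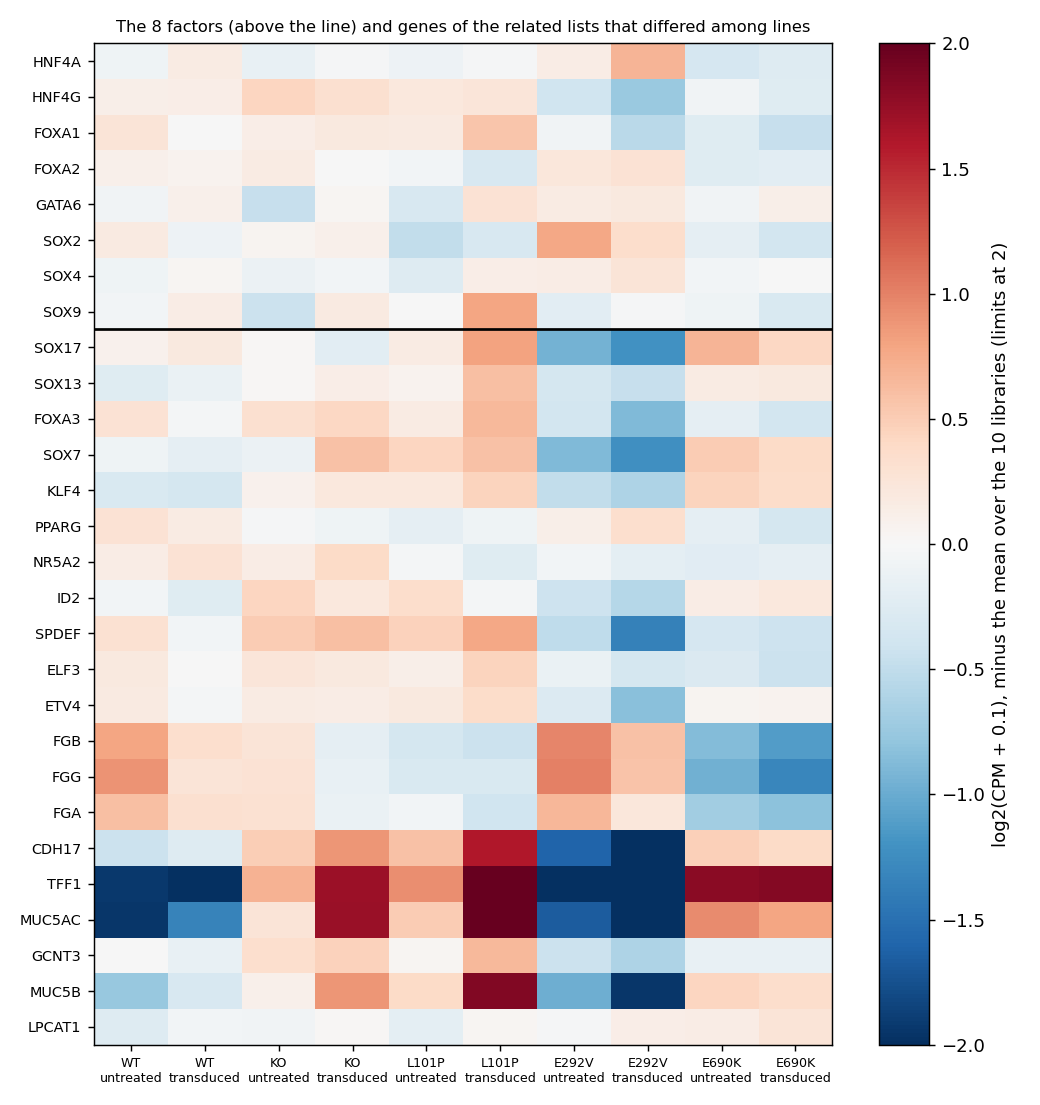
Log2(CPM + 0.1) of the 8 factors (above the line) and of 20 genes from the related lists that differed among lines, each minus its mean over the 10 libraries (colour, limits at 2). E292V is low for SOX17, SPDEF and CDH17, and E690K is low for FGA, FGB and FGG.

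Genes near the members were compared on GRCh38 within 1 Mb. For HNF4A there were 23 such genes, with an E292V against WT log2 median of -0.0049, values from -1.05 to 0.37 and 0 called. HNF4A was at 0.39 and was not called either. For SOX2 the 2 neighbours had 0.05 and 0.16, and SOX2, also not called, had 0.54. For HNF4G the 2 neighbours lay at -0.30 and 0.12, and HNF4G at -0.70.

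As a description over the 10 libraries, which pair by line, PDGFC, a growth factor, was among the genes most like HNF4A (Pearson r 0.96). Those most like HNF4G were PCDHAC2 (0.99) and RNF43 (0.98), and those most like FOXA1 were TJP3 (0.99), a tight-junction protein, and CYP4F12 (0.97). FOXA2 was most like MCM3 (0.96) and APOC1 (0.96), SOX2 most like TNNT1 (0.97) and CCDC51 (0.95). GATA6 was most like PGM2L1 (0.90) and TFPI (0.89), SOX4 most like THOC6 (0.94) and RNF145 (0.94), and SOX9 most like BANK1 (0.96) and COPB1 (0.93). Between members, GATA6 with SOX4 (0.81), FOXA1 with HNF4G (0.80) and FOXA2 with SOX2 (0.77) were the closest, and HNF4A with HNF4G was at -0.61. Of the 16 partner genes found, 2 for each factor, 5 were also among the top 2 by Spearman correlation.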

How the data were processed

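The deposited counts are whole numbers per gene for 33551 gene rows in 10 libraries, and 81.4% of counts from 1 to 10 were even, so mates appear to be counted separately. The submitters' processing notes name featureCounts, Subread, edgeR, limma and GRCh38 with no version; the aligner, annotation and strand setting are not given in the sources used here. Gene rows were matched to GENCODE 29 (33047 rows, 98.5%). edgeR 4.0.16 (R 4.3.3) fitted line and vector status over the 10 libraries after filterByExpr (17978 genes) with TMM factors of 0.972 to 1.03; the common dispersion was 0.0168 and 4 residual degrees of freedom remained. Since each line and vector status is 1 library, the error is the departure from additivity, and p-values measure the spread of these libraries, which may be technical. Pairs of libraries share their cell line, so line was the block for the vector effect. Alternatives were DESeq2 1.42.0, limma 3.58.1 voom, other filters and scaling, exchanged labels of the pair labelled KO, and leave-one-out. Named genes were the 8 members, the 4 genes of each list with the lowest F-test p, and the 2 most correlated genes with an average log2 CPM of at least 1. Results that need withheld items are not reported here. Members and lists were chosen with earlier results of these data known. The test was checked on simulated counts.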

Additional observations from a re-analysis of the deposited data

Results flagged for a closer look

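The log2 change of SOX4 from the untreated to the transduced L101P library was 0.383, while the other 4 lines ran from 0.04 (E690K) to 0.13 (WT). It stood apart from them because the gap to WT was 0.729 of the whole range, above Dixon's limit of 0.71 for 5 values. It was the 1 of 24 sets examined that did so, where chance gives about 1 in 20. As labelled, L101P also had the highest such change for HNF4G (0.03), FOXA1 (0.37), GATA6 (0.61), SOX2 (0.18) and SOX9 (0.80). It had the lowest for HNF4A (0.08) and FOXA2 (-0.27), so a large change in this pair was not particular to SOX4. The values of the pair labelled KO go against its labels. With those labels exchanged the SOX4 gap was 0.574 of the range, and without the pair it was 0.729, below the higher limit for 4 values, so SOX4 no longer stood apart in either.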

How the results depend on the processing

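All 13 member differences called between lines kept their sign under every alternative run. Members called moved without the filter on low counts to 1 (L101P against WT), 4 (E292V against WT), 3 (E690K against WT), 1 (labelled KO against L101P), 2 (labelled KO against E690K), 2 (L101P against E690K) and 1 (vector). DESeq2 gave 3 (E292V against WT), 3 (E690K against WT), 2 (labelled KO against E690K) and 1 (L101P against E690K), where at least 10 counts in every library, limma-voom and read pairs also gave 1. Exchanging the KO labels gave 0 for E292V against WT. Leave-one-out counts ran from 0 to 0 for labelled KO against WT, 0 to 3 for L101P and for E690K against WT, 0 to 5 for E292V against WT, 0 to 2 for labelled KO against L101P, 1 to 5 for labelled KO against E292V, 0 to 3 for labelled KO against E690K, 2 to 6 for L101P against E292V, 0 to 2 for L101P against E690K, 2 to 5 for E292V against E690K, 1 to 7 for any difference among lines, and 0 to 1 for the vector. Genes called over the whole table moved as well (below), so a changed member count is not a result about the members alone. The cause was not tested.

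Of 88 member log2 values, 24 changed sign under some alternative, 0 of them called and each 0.26 or smaller in size. SOX4 in E690K against WT moved to 0.0068 with DESeq2 size factors, 0.0068 with DESeq2 and 0.0043 as read pairs. GATA6 moved to 0.023 with limma-voom and 0.0068 without the vector term in L101P against WT, and to 0.021 and 0.0047 in L101P against E690K. Leave-one-out log2 ranges of these 24 were as follows. E690K against WT gave SOX4 -0.0698 to 0.0625, GATA6 -0.0728 to 0.0877, SOX9 -0.579 to 0.0956. L101P against WT gave GATA6 -0.227 to 0.166, SOX4 -0.189 to 0.112, FOXA1 -0.0513 to 0.539. L101P against E690K gave GATA6 -0.227 to 0.165, FOXA2 -0.08095 to 0.162, SOX2 -0.331 to 0.0635, SOX4 -0.183 to 0.117. Labelled KO against E292V gave SOX9 -0.186 to 0.174. Labelled KO against WT gave FOXA1 -0.0613 to 0.157, FOXA2 -0.0717 to 0.0481, SOX2 -0.0773 to 0.151, SOX9 -0.351 to 0.0102. Labelled KO against L101P gave HNF4A -0.101 to 0.066004, SOX4 -0.174 to 0.127, FOXA1 -0.486 to 0.104, GATA6 -0.386 to 0.006905. Labelled KO against E690K gave SOX4 -0.118 to 0.009396, SOX9 -0.265 to 0.405. E292V against E690K gave FOXA1 -0.2003 to 0.268, GATA6 -0.005202 to 0.329, SOX9 -0.259 to 0.414.

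Genes called over the whole table ranged over all alternatives from 25 to 1226 (labelled KO against WT, 323 reported), 180 to 1967 (L101P, 709), 13 to 810 (E292V, 189) and 169 to 2147 (E690K, 967), and from 0 to 237 for the vector. Against WT, the most genes were called without an L101P library. It was the transduced one for labelled KO, and the untreated one for L101P, E292V and E690K. All comparisons share 1 estimate of the spread, and untreated L101P held the fewest counts (59430095). Why these fits called more was not tested. Outside leave-one-out, the ranges against WT were 142 to 982 (labelled KO), 367 to 1437 (L101P), 105 to 662 (E292V) and 599 to 1659 (E690K). The line labelled KO gave 11 to 186 genes against L101P (25 reported), 1550 to 2556 against E292V (1917) and 107 to 787 against E690K (295). L101P gave 2019 to 3039 against E292V (2476) and 38 to 617 against E690K (124). E292V against E690K gave 1454 to 2452 (1869). Without the line block (no replicate block), 0 members were called for the vector. Of the 16 genes most like the members by Pearson correlation, 5 were shared with the Spearman ranking. GATA6 and HNF4G rest on the fewest counts (from 291 and 578), while the largest standard errors of a difference between lines were those of SOX9 (up to 0.19) and GATA6 (up to 0.18).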
